A study of Homo sapiens with 22 samples.

Results

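A pair of short hairpin RNAs (shRNAs) against the same gene, FIP1L1, was compared directly in Kasumi-1 cells, an established human acute myeloid leukaemia line with a RUNX1-RUNX1T1 fusion gene. The 4 RNA-seq libraries of cells that received shFIP1L1-2 were set against the 4 libraries of cells that received shFIP1L1-1, and 4 libraries of cells with the control hairpin, shControl, stand beside them. They were chosen by their labels, not by their values, and are 8 of the 22 samples of the series, or 12 with the control. Every group was transduced with a lentivirus, selected with puromycin and grown in RPMI with 10% FBS, so the virus and the drug are shared by the control too. Whether each replicate was transduced on its own is not stated in the labels, and the p-values therefore describe library-to-library spread, which may be technical. The FIP1L1 level, the hairpin sequence and the transduced culture all change together between the groups and cannot be told apart.

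FIP1L1 belongs to the cleavage and polyadenylation specificity factor, the complex that recognises the polyadenylation signal of a nascent transcript, cuts the RNA behind it and hands the new end to poly(A) polymerase. It is known for binding U-rich RNA near that signal and so for taking part in the choice between alternative poly(A) sites. An shRNA is processed by the cell's small RNA machinery into a short guide that directs an Argonaute protein to matching transcripts, and a guide can also act on transcripts that match only its seed. A second hairpin against the same gene is the usual companion of the first in such work. Its comparison with the first describes how far the RNA of cells with either hairpin differs.

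The libraries held 15418235 to 19208398 counts with shFIP1L1-2, 14019866 to 20388437 with shFIP1L1-1 and 12236937 to 19154704 with shControl. Levels are given as CPM, the count of a gene relative to the TMM-scaled size of its library. Across genes, correlations of log2 CPM were at least 0.968 between libraries of a group and at most 0.954 between groups. Within shFIP1L1-1, libraries 3 and 4 were alike (0.988), while libraries 1 and 2 differed from them and from each other (0.968). By chi-square over degrees of freedom, the pair of libraries 1 and 2 stood at 11.8 and that of 3 and 4 at 4.12. Pairs across them stood at 15.2 to 32.6. Chi-square over degrees of freedom between libraries reached 32.6 in that group, against at most 6.86 with shFIP1L1-2 and at most 7.9 with shControl. The lowest value within any group was 3.77, so no pair differed by counting error alone. This does not tell separate cultures from separate preparations of the same culture. Mitochondrially encoded genes held 8.09% to 9.25% of the counts with shFIP1L1-2, but 7.2%, 6.45%, 4.92% and 4.86% in shFIP1L1-1 libraries 1 to 4, beside 7.94% to 8.51% with shControl. Lists whose counts moved by more than 1.5 times, or were otherwise most touched, when libraries 1 and 2 or libraries 3 and 4 were left out are given with and without them. The line's own markers RUNX1T1, CD34, KIT, MPO, CD33 and ANPEP were present in every library, and MS4A1 of B cells, HBB of red cells and COL1A2 of fibroblasts had no count in any.

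FIP1L1 itself (ENSG00000145216, chromosome 4, 53377643 to 53460861, plus strand, GRCh38) was low with both hairpins. It had 20.2, 20.2, 19.1 and 18.7 CPM with shFIP1L1-2, 14.1, 14.7, 15.1 and 17.6 CPM with shFIP1L1-1, and 42.2, 38.9, 44.1 and 40.2 CPM with shControl. All 4 shFIP1L1-2 libraries lay above all 4 shFIP1L1-1 libraries and far below the control. The log2 difference between the hairpins was 0.35 (SE 0.0991, edgeR quasi-likelihood test, adjusted p = 0.00415), and LNX1 overlaps the gene on the other strand. Against the control the log2 change was -1.08 with shFIP1L1-2 and -1.43 with shFIP1L1-1.

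Differences between the hairpins ran through the transcriptome. Of 15834 genes tested, 9299 differed between the hairpins at an adjusted p under 0.05, which is 58.7%. Of these, 4643 (29.3% of all tested) were higher with shFIP1L1-2 and 4656 (29.4%) were lower. At least 2-fold differences were called for 1390 genes higher (8.78%) and 1638 lower (10.3%), together 19.1%. For 8339 genes (52.7%), the 4 shFIP1L1-2 libraries did not overlap the 4 shFIP1L1-1 libraries. The median absolute log2 difference over all tested genes was 0.47 and the signed median was -0.0188. These shares and this median are the background for every gene list below, where the share called counts both directions. For comparison, 50% of the tested genes were called between shFIP1L1-2 and shControl and 57.3% between shFIP1L1-1 and shControl, in comparisons that share the control libraries. Scaling by library totals alone moved the signed median to -0.129 and the share of higher genes among those called to 40.5%, against 49.9% with TMM. In bulk RNA, more cells expressing a gene and more RNA per cell cannot be told apart.

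**Figure D1:**
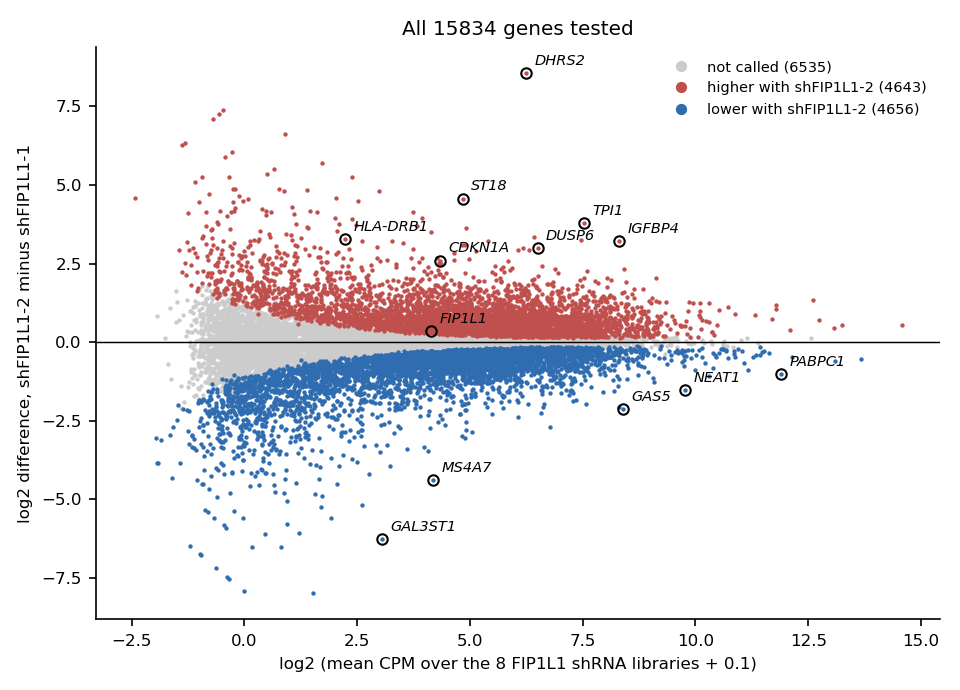
Each point is 1 of the 15834 tested genes, placed by its mean CPM over the 8 FIP1L1 shRNA libraries (log2 axis) and by its log2 difference, shFIP1L1-2 minus shFIP1L1-1. Red and blue genes passed the adjusted p of 0.05, 4643 above the line and 4656 below it, and circles mark genes described in the text.

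The gene with the highest difference by the rule for named genes was DHRS2 (ENSG00000100867, chromosome 14, 23630115 to 23645639, plus strand, GRCh38), which encodes a short-chain dehydrogenase/reductase. It had 154, 158, 141 and 152 CPM with shFIP1L1-2, 0.286, 0.368, 0.408 and 0.526 CPM with shFIP1L1-1, and 0.374, 0.512, 0.138 and 0.224 CPM with shControl. The gene was thus close to silent in 8 of the 12 libraries and abundant in the 4 shFIP1L1-2 libraries, a log2 difference of 8.57 (SE 0.143, edgeR adjusted p = 2.55e-22). LGALS1, which encodes a galectin, had a similar order, with 17.0, 16.5, 16.1 and 11.2 CPM with shFIP1L1-2, 0.343, 0.46, 0.175 and 1.25 CPM with shFIP1L1-1 and at most 1.46 CPM with shControl. DUSP6, a phosphatase that switches off ERK kinases, also stood high with shFIP1L1-2 alone, at 165, 169, 155 and 154 CPM, against 20.5, 22.9, 18.4 and 18.4 CPM with shFIP1L1-1 and 19.96 to 25.5 CPM with shControl. Its log2 difference was 3.00 (SE 0.0879, adjusted p = 1.09e-17).

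Other genes with a large positive difference were at the control level with shFIP1L1-2 and low with shFIP1L1-1. TPI1, triosephosphate isomerase of glycolysis, had 342, 336, 349 and 349 CPM with shFIP1L1-2, 20.2, 26.9, 23.6 and 29.3 CPM with shFIP1L1-1, and 326, 302, 377 and 348 CPM with shControl. The shFIP1L1-2 libraries lay within the range of the control, and the log2 difference between hairpins was 3.78 (SE 0.0953, adjusted p = 3.22e-18). ST18, a zinc finger transcription factor, had 46.7 to 61.2 CPM with shFIP1L1-2, 2.12 to 2.51 CPM with shFIP1L1-1 and 48.6 to 59.3 CPM with shControl. RD3, known from photoreceptors, had 7.82 to 12.7 CPM with shFIP1L1-2 and no count in libraries 2 and 4 of shFIP1L1-1. The long noncoding RNA ZNF24TR, the fucosyltransferase gene FUT1 and CD93, a surface receptor of myeloid and endothelial cells, had the same order of groups, with log2 differences of 4.50, 3.72 and 3.63. FUT1 and RD3 were a little above the control on average with shFIP1L1-2, by 0.45 and 0.15 on the log2 scale, and CD93 a little below it, at -0.30.

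At the other end, GAL3ST1 (ENSG00000128242, chromosome 22, 30554635 to 30574587, minus strand, GRCh38), which encodes the sulfotransferase that makes sulfatide, had 0.212, 0.113, 0.164 and 0.331 CPM with shFIP1L1-2. It had 18.7, 17.3, 15.6 and 13.1 CPM with shFIP1L1-1 and at most 0.427 CPM with shControl. This is the mirror image of DHRS2, with the signal in the 4 shFIP1L1-1 libraries alone, and the log2 difference was -6.28 (SE 0.344, adjusted p = 3.63e-13). MS4A7, a tetraspan membrane protein of monocytes and macrophages, had 1.19 to 1.97 CPM with shFIP1L1-2, 30.6 to 37.6 CPM with shFIP1L1-1 and 0.691 to 3.67 CPM with shControl. SLC1A3, a glutamate transporter, had a log2 difference of -3.49. TNXB, a tenascin of the extracellular matrix that shares bases with a gene on the other strand, differed by -3.40. PIWIL4, a PIWI protein, had 2.08 to 3.71 CPM with shFIP1L1-2, 21.8 to 33.7 CPM with shFIP1L1-1 and 4.53 to 7.46 CPM with shControl. HEATR4 (-3.80), PATL2 (-3.71), CCDC18-AS1 (-3.48) and CFAP70 (-3.31) completed the 12 lowest with genes described next.

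**Figure D2:**
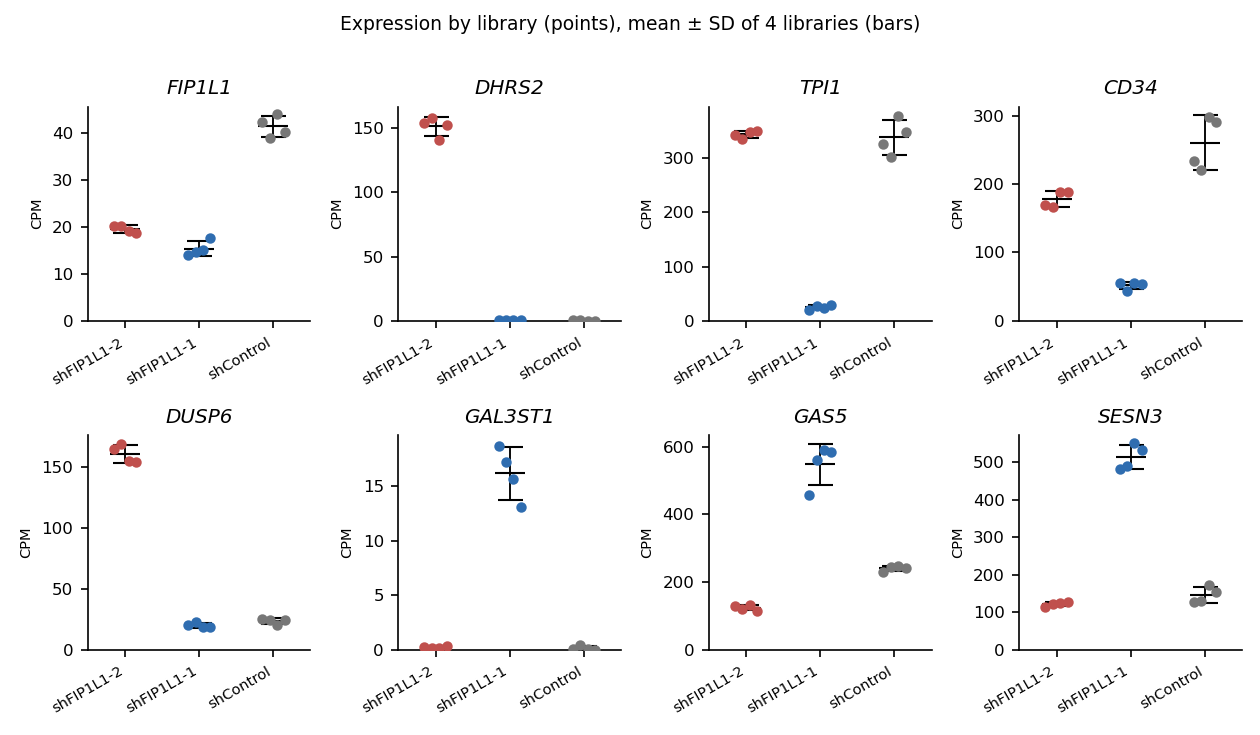
CPM (linear axes from 0) of 8 genes in each library, with points for the 4 libraries of shFIP1L1-2, shFIP1L1-1 and shControl and bars for the mean ± SD. DHRS2 and DUSP6 stand high with shFIP1L1-2 alone, GAL3ST1, GAS5 and SESN3 stand highest with shFIP1L1-1, and TPI1 is low with shFIP1L1-1 alone.

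Some genes lay on opposite sides of the control with the hairpins, in every library. TIE1, a receptor tyrosine kinase of endothelial and blood stem cells, had 27.6, 27.1, 23.3 and 26.2 CPM with shFIP1L1-2, 0.857, 4.14, 1.05 and 1.58 CPM with shFIP1L1-1, and 7.85, 10.2, 4.9 and 6.11 CPM with shControl. PCDH7, a protocadherin, MYOF, a membrane repair protein of the ferlin family, and TMEM92 had the same order. DBI, the acyl-CoA binding protein, had 59.4 to 66.4 CPM with shFIP1L1-2, 6.53 to 9.54 CPM with shFIP1L1-1 and 18.95 to 27.4 CPM with shControl. SIGLEC8, a sialic acid binding receptor of eosinophils and mast cells, had 9.28 to 10.1 CPM with shFIP1L1-2, 0.395 to 0.857 CPM with shFIP1L1-1 and 3.16 to 5.94 CPM with shControl. In the reverse order, NT5E, the ectonucleotidase CD73, had 0.901, 0.85, 0.219 and 0.795 CPM with shFIP1L1-2, 10.8, 13.7, 14.7 and 11.5 CPM with shFIP1L1-1, and 1.51 to 3.16 CPM with shControl. ACSM3, a mitochondrial acyl-CoA synthetase, had 0.822 to 1.87 CPM with shFIP1L1-2, 15.5 to 20.1 CPM with shFIP1L1-1 and 5.9 to 7.09 CPM with shControl. MROH7, ZCWPW1, a reader of histone methylation in meiosis, and PGGHG, a glucosidase, followed the same reverse order, with log2 differences of -5.17, -3.28 and -2.98. Since membership in these groups was set by the order itself, the order is a description.

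Among genes with a mean of at least 200 CPM, the highest differences were those of IGFBP4, ANXA6, ATP5F1B, ITGB1 and HADHA. IGFBP4, a secreted binder of insulin-like growth factors, had 588, 586, 545 and 572 CPM with shFIP1L1-2, 59.4, 51, 63.9 and 74.5 CPM with shFIP1L1-1, and 392, 362, 359 and 368 CPM with shControl. It was called above the control with shFIP1L1-2 and below it with shFIP1L1-1 without any overlap of libraries. ANXA6, a calcium-dependent membrane binder, had 527 to 601 CPM with shFIP1L1-2, 108 to 120 CPM with shFIP1L1-1 and 401 to 447 CPM with shControl. HADHA, of mitochondrial fatty acid oxidation, differed by 1.96, and shares bases with its partner HADHB on the other strand. The lowest were GAS5, SESN3, FTH1, SNHG32 and NEAT1. SESN3, a sestrin that restrains mTORC1, had 113, 122, 125 and 126 CPM with shFIP1L1-2, 483, 490, 550 and 531 CPM with shFIP1L1-1, and 126, 130, 173 and 154 CPM with shControl. NEAT1, the scaffold RNA of paraspeckles, had 378, 532, 498 and 381 CPM with shFIP1L1-2, 749, 1106, 1554 and 1802 CPM with shFIP1L1-1, and 395 to 489 CPM with shControl. FTH1, the ferritin heavy chain, had 109 to 138 CPM with shFIP1L1-2, 194, 309, 454 and 526 CPM with shFIP1L1-1, and 79.2 to 115 CPM with shControl. For NEAT1 and FTH1, shFIP1L1-1 libraries 3 and 4 were higher than libraries 1 and 2, and all 4 lay above every shFIP1L1-2 library.

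The partners of FIP1L1 were examined next. Of the 23 tested genes of cleavage and polyadenylation, 14 were higher with shFIP1L1-2, 5 were lower and 4 were not called (82.6% called), with a median log2 difference of 0.284. Numbers in brackets after a gene are its log2 difference, shFIP1L1-2 minus shFIP1L1-1. Of the CstF subunits, CSTF1 (0.54), CSTF2 (0.64) and CSTF2T (0.45) were higher and CSTF3 was not called (-0.02, adjusted p = 0.85). Other higher genes included the cleavage factor genes CPSF6 (0.39), CPSF7 (0.45), PCF11 (0.54) and CLP1 (0.59), and PABPN1 (0.64), the nuclear poly(A) binding protein. Of the other subunits of FIP1L1's own complex, CPSF1, CPSF2 and CPSF4 were higher by 0.17, 0.19 and 0.28, the endonuclease CPSF3 was lower at -0.40, and WDR33 was not called at -0.08. PPP1CA, a phosphatase catalytic subunit associated with the complex, had 269 to 286 CPM with shFIP1L1-2, 96.1 to 107 CPM with shFIP1L1-1 and 271 to 316 CPM with shControl. NUDT21, the cleavage factor subunit that binds UGUA, had 108, 98.1, 95.4 and 100 CPM with shFIP1L1-2, 168, 156, 150 and 145 CPM with shFIP1L1-1, and 189 to 202 CPM with shControl. It was therefore below the control with both hairpins and lower with shFIP1L1-2 by a log2 difference of -0.62 (SE 0.0641, adjusted p = 1.6e-08). Cytoplasmic PABPC1 differed by -1.01, with 2469 to 2637 CPM with shFIP1L1-2 and 4597 to 5658 CPM with shFIP1L1-1.

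The machinery that processes and uses small RNAs had 17 tested genes, of which 4 were higher, 4 were lower and 9 were not called. DGCR8, the partner of DROSHA in the nucleus, had 82.3 to 103 CPM with shFIP1L1-2, 54.8 to 62.2 CPM with shFIP1L1-1 and 61.6 to 70.0 CPM with shControl. AGO4 (-0.72) and the uridylyltransferase TUT7 (-0.84) were lower, while AGO2, the slicing Argonaute, was not called at -0.05. The share of this list called, 47.1%, was below the 58.7% of all tested genes, and its median was -0.0509.

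**Figure D3:**
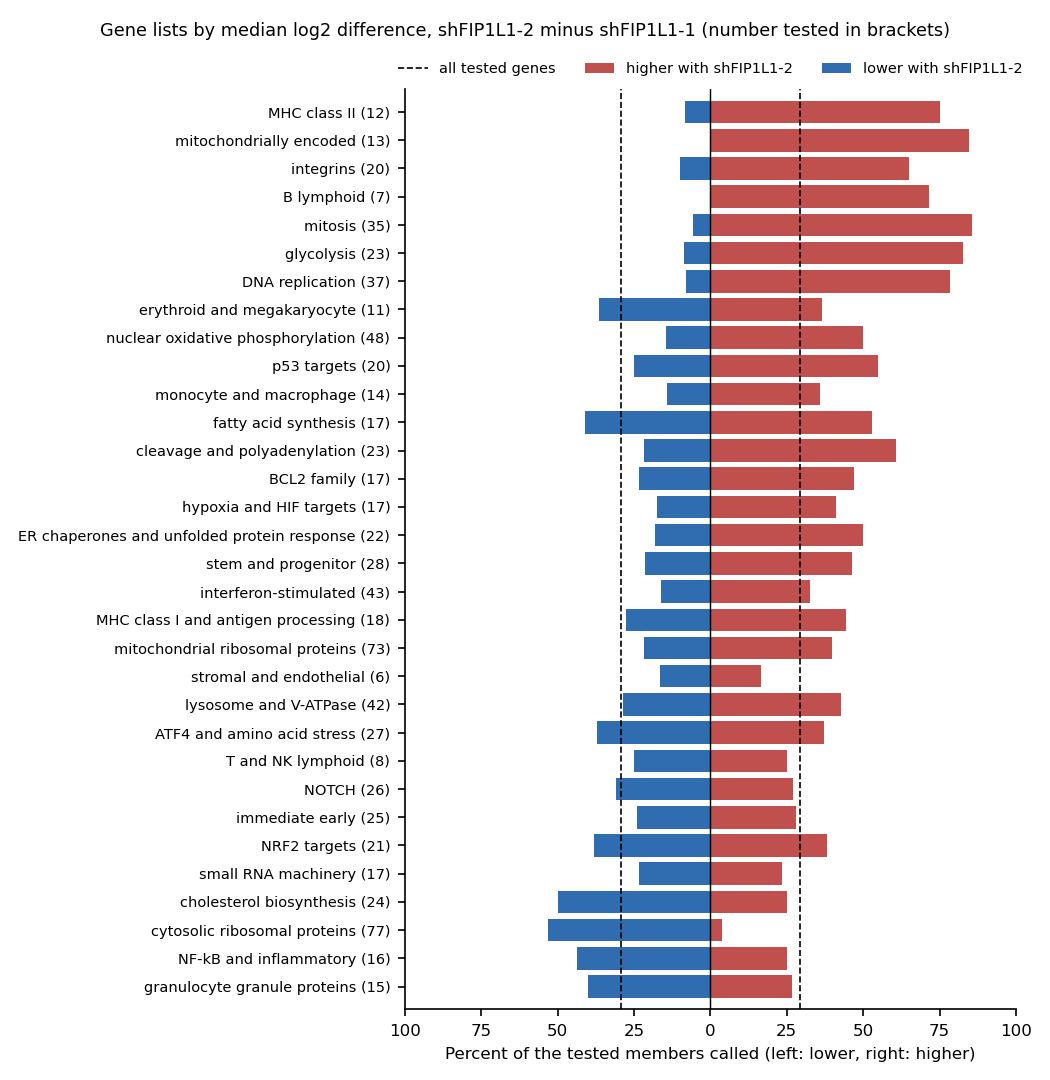
Percent of the tested members of each of 32 gene lists that were higher (right) or lower (left) with shFIP1L1-2 than with shFIP1L1-1, ordered by the list's median log2 difference, with dashed lines at 29.3% and 29.4% of all tested genes. The mitosis, mitochondrially encoded and glycolysis lists reach furthest to the right, and cytosolic ribosomal proteins furthest to the left.

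Genes of MHC class II, which carry peptides to helper T cells and are transcribed with the help of RFX5, RFXANK, RFXAP and CIITA, had the highest list median, 1.19. Of 12 tested members, 9 were higher with shFIP1L1-2, 1 was lower and 2 were not called (83.3% called), and 6 members of the list fell below the filter. The promoters of these genes carry a conserved X box, bound by RFX, and a Y box, bound by NF-Y. The 150 bases before the annotated start are shown for 4 higher members (RefSeq, GRCh38.p14, 5′ to 3′ on the gene's strand). Capitals mark ATTGG or its reverse CCAAT, the core of the Y box, and CTGATGATG, a core of the X box of some members.
HLA-DRB1 (chr6:32589849-32589998, - strand): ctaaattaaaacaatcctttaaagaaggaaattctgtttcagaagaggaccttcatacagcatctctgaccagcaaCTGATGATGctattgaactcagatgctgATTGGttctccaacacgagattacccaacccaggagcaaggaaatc
HLA-DPB1 (chr6:33075840-33075989, + strand): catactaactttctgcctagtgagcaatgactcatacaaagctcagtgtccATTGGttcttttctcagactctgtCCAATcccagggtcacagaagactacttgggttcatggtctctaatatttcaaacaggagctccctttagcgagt
HLA-DMA (chr6:32953098-32953247, - strand): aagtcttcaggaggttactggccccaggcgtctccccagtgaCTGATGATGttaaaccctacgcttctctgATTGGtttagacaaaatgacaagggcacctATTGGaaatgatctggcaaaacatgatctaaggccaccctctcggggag
CD74 (chr5:150412911-150413060, - strand): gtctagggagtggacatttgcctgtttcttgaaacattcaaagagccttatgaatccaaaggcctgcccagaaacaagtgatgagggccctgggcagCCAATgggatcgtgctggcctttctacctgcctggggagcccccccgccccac

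The letters ATTGG, on either strand, lay in these 150 bases of at least 1 promoter of 13 of the 16 list genes matched to the table, against 23.5% of all 35116 promoters in the table. CTGATGATG lay in 4 of the 16, against 0.154% of all promoters, and the motifs did not overlap in the sequences shown. Genes were counted by any of their promoters, so the shares of promoters are not a like measure. Several of the matched genes, such as HLA-DQA1 and HLA-DOB, were not tested. RFX5, which was lower, has ATTGG, and HLA-DPA1, which was higher, has neither motif. A match describes the letters only.

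The class II chains themselves differed strongly between hairpins and also within groups. HLA-DPB1 had 32.4, 31.8, 14.4 and 15.1 CPM with shFIP1L1-2, 3.77, 3.5, 2.62 and 2.04 CPM with shFIP1L1-1, and 17.1, 15.6, 7.53 and 7.29 CPM with shControl. In each group libraries 1 and 2 were above libraries 3 and 4, and all shFIP1L1-2 libraries were above all shFIP1L1-1 libraries, with a log2 difference of 2.96 (SE 0.409, adjusted p = 6.74e-05). HLA-DRB1 differed by 3.28 and had 11.8, 10.4, 6.14 and 5.04 CPM with shFIP1L1-2, against 0.592 to 1.14 CPM with shFIP1L1-1 and 1.12 to 4.1 CPM with shControl. HLA-DRA differed by 2.43 and HLA-DPA1 by 1.95. CD74, the invariant chain that occupies the class II groove, had 494, 467, 358 and 291 CPM with shFIP1L1-2, 191 to 245 CPM with shFIP1L1-1 and 283 to 337 CPM with shControl. HLA-DMA, of the heterodimer that exchanges peptides on class II, differed by 1.06, and HLA-DMB had 0.932 to 1.81 CPM with shFIP1L1-2 and no count in 3 of 4 shFIP1L1-1 libraries. CIITA, the coactivator of the locus, had 73.0, 71.5, 40.0 and 40.7 CPM with shFIP1L1-2, 68.7, 51.0, 42.4 and 41.9 CPM with shFIP1L1-1, and 44.9 to 81.3 CPM with shControl, and was not called (0.14, adjusted p = 0.694). RFX5 went the other way, with 72.3, 72.7, 73.8 and 70.0 CPM with shFIP1L1-2, 201, 210, 209 and 205 CPM with shFIP1L1-1, and 119 to 133 CPM with shControl, a log2 difference of -1.52 (SE 0.0611, adjusted p = 2.79e-15). HLA genes share reads with close copies, which makes their values uncertain. Without shFIP1L1-1 libraries 1 and 2, 7 members were higher, and without libraries 3 and 4, 9 were.

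**Figure D4:**
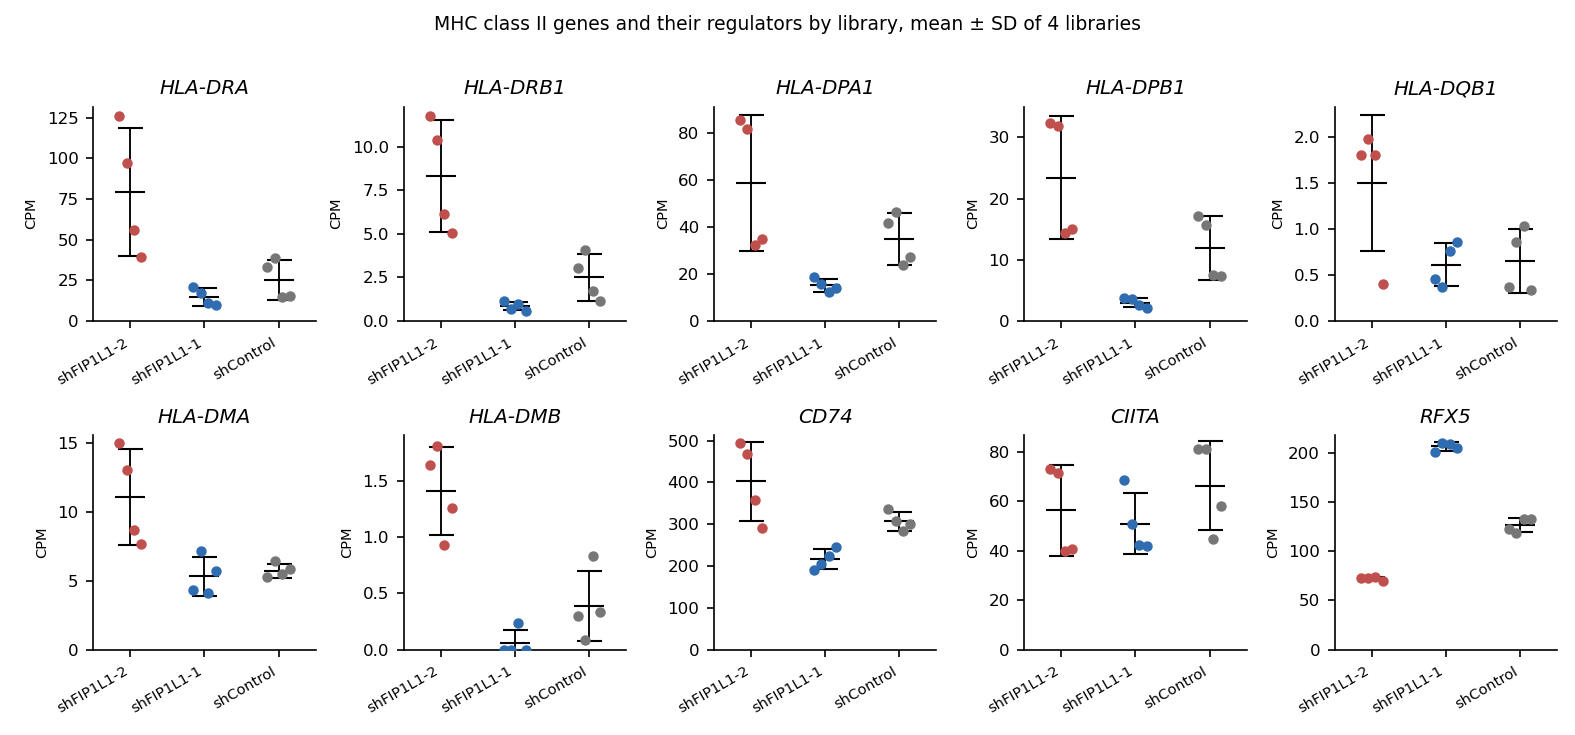
CPM (linear axes from 0) of MHC class II genes, CD74, CIITA and RFX5 in the 4 libraries of each group, with mean ± SD. HLA-DPB1 lies at 14.4 to 32.4 CPM with shFIP1L1-2, above all shFIP1L1-1 libraries, and RFX5 lies at 70.0 to 73.8 CPM, below all of them.

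Class I genes were mixed. Of 18 tested members of the antigen-presentation list, 8 were higher, 5 were lower and 5 were not called (72.2% called, median 0.169). TAPBP, which holds class I at the peptide transporter, had 369 to 427 CPM with shFIP1L1-2, 105 to 127 CPM with shFIP1L1-1 and 249 to 289 CPM with shControl. PDIA3 and the trimming peptidase ERAP1 were higher by 1.44 and 1.18, and B2M, the light chain, by 0.64, while HLA-E (-0.52) and ERAP2 (-0.94) were lower. Of 43 interferon-stimulated genes, 14 were higher and 7 lower, so that 48.8% were called against 58.7% of all tested genes, with a median of 0.183. ADAR, the RNA editing enzyme, was higher by 1.05 and OAS3 by 0.92.

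Cell-cycle genes were higher with shFIP1L1-2. Of 35 tested mitosis genes, 30 were higher, 2 were lower and 3 were not called (91.4% called), with a median of 0.683. Of 37 DNA replication genes, 29 were higher, 3 were lower and 5 were not called (86.5% called), with a median of 0.639. The summed CPM of the mitosis list was 4898 to 5214 with shFIP1L1-2, 3278 to 3727 with shFIP1L1-1 and 3919 to 4197 with shControl, so the control lay between the hairpins. For the replication list the sums were 5758 to 5904 with shFIP1L1-2, 3805 to 4097 with shFIP1L1-1 and 5775 to 6009 with shControl, so shFIP1L1-2 and the control overlapped. MKI67, a marker of cycling cells, had 614, 523, 556 and 602 CPM with shFIP1L1-2, 330, 261, 239 and 228 CPM with shFIP1L1-1, and 345 to 374 CPM with shControl. CCNB1, the mitotic cyclin B1, was higher by 1.30, NCAPG of condensin by 1.17 and CCNB2 by 0.88. RRM2, which supplies deoxyribonucleotides, had 411 to 441 CPM with shFIP1L1-2, 140 to 170 CPM with shFIP1L1-1 and 194 to 220 CPM with shControl.

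A few members went against the rest. PCNA, the sliding clamp of DNA polymerases, had 49.7, 51.9, 48.4 and 47.7 CPM with shFIP1L1-2, 125, 129, 152 and 165 CPM with shFIP1L1-1, and 130 to 147 CPM with shControl, a log2 difference of -1.53 (SE 0.0811, adjusted p = 2.17e-13). PCNA was thus low with shFIP1L1-2 alone. MAD2L1 of the spindle checkpoint had 17.3 to 23.9 CPM with shFIP1L1-2, 37.8 to 51.2 CPM with shFIP1L1-1 and 50.7 to 65.8 CPM with shControl. CDT1, a licensing factor, and PRIM1, a primase subunit, were lower, at -0.65 and -0.62. Leaving out shFIP1L1-1 libraries 1 and 2, or 3 and 4, gave 31 and 28 higher mitosis genes and 29 higher replication genes each time.

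The targets of p53 were split, with 11 of 20 higher and 5 lower (80% called against 58.7% of all tested genes, median 0.335). CDKN1A, the cyclin-dependent kinase inhibitor p21, had 39.9, 42.8, 28.1 and 26.5 CPM with shFIP1L1-2, 3.83, 8.83, 3.91 and 5.92 CPM with shFIP1L1-1, and 3.73 to 5.08 CPM with shControl. It was the widest difference of the list, 2.59 (SE 0.23, adjusted p = 3.36e-08), and stood beside the higher cell-cycle genes in the same libraries. MDM2, the ubiquitin ligase of p53, was higher by 0.80, at 35.6 to 41.4 CPM with shFIP1L1-2, 17.6 to 27.7 CPM with shFIP1L1-1 and 63.9 to 72.4 CPM with shControl. BBC3 (-1.41), RRM2B (-0.70) and XPC (-0.57) were lower. In the BCL2 family, 8 of 17 were higher and 4 lower (70.6% called, median 0.259). BCL2L1, BAK1 and BIK were higher by 1.24, 1.205 and 1.65, and BCL2 was lower, at -0.54. In this family 5 members were higher without shFIP1L1-1 libraries 1 and 2.

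Of 23 tested glycolysis genes, 19 were higher with shFIP1L1-2, 2 were lower and 2 were not called (91.3% called), with a median of 0.676. The summed CPM of the list was 8673 to 9744 with shFIP1L1-2, 5797 to 6037 with shFIP1L1-1 and 11728 to 11885 with shControl, so both hairpins lay below the control. Beside TPI1, higher genes included PGK1 (1.00), PGAM1 (0.94), LDHA (1.03), SLC2A1 (1.18) and PKM (0.69). LDHA, which makes lactate, had 492, 491, 605 and 532 CPM with shFIP1L1-2, 294, 244, 246 and 257 CPM with shFIP1L1-1, and 962 to 1097 CPM with shControl. LDHB (-0.33) and PDK1 (-0.64) were the lower members. Several of these genes have processed pseudogenes that can share their reads. Among HIF targets, 7 of 17 were higher and 3 lower, and the 58.8% called is close to that of all tested genes (median 0.258). EGLN1 was at 1.16, ERO1A at 0.76 and NDRG1 at -0.76. Without shFIP1L1-1 libraries 1 and 2, 5 HIF targets were lower.

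The nuclear genes of oxidative phosphorylation were 24 higher, 7 lower and 17 not called of 48 (64.6% called), with a median of 0.356. Without shFIP1L1-1 libraries 1 and 2, 20 were higher and 8 lower, and without libraries 3 and 4, 33 and 6. ATP5F1B, the catalytic subunit of ATP synthase, had 918, 851, 867 and 934 CPM with shFIP1L1-2, 202, 206, 220 and 236 CPM with shFIP1L1-1, and 951 to 1049 CPM with shControl. COX4I1 of cytochrome oxidase was higher by 0.95, whereas NDUFB5 of complex I was lower, at -0.93. Of the 13 genes encoded by mitochondrial DNA, 11 were higher and 2 were not called (84.6% called), with a median of 0.804. None was lower in edgeR at the adjusted p, at an unadjusted p under 0.05 (0 genes) or in DESeq2 (0 genes). Leaving out shFIP1L1-1 libraries 1 and 2, or 3 and 4, gave 12 and 11 higher genes. MT-ND3 had 1844, 1638, 1676 and 1917 CPM with shFIP1L1-2, 826, 648, 715 and 811 CPM with shFIP1L1-1, and 1472 to 2074 CPM with shControl. MT-CO1 had 32343, 27151, 27136 and 29438 CPM with shFIP1L1-2, 25378, 22214, 16428 and 15169 CPM with shFIP1L1-1, and 25474 to 28149 CPM with shControl. For MT-CO1 the lowest libraries were shFIP1L1-1 libraries 3 and 4, and MT-ND1 was not called at 0.14. Mitochondrial ribosomal protein genes were 29 higher and 16 lower of 73, and the 61.6% called is close to the 58.7% of all tested genes (median 0.16). Without shFIP1L1-1 libraries 1 and 2 they were 23 higher and 18 lower, and without libraries 3 and 4, 37 and 11. MRPL23 was at 1.43, MRPS18A at 1.39 and MRPS27 at -0.70.

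Genes of cytosolic ribosomal proteins went the other way by a small amount. Of 77 tested genes, 41 were lower with shFIP1L1-2, 3 were higher and 33 were not called (57.1% called), with a median of -0.224. RPL12 had 731, 655, 707 and 724 CPM with shFIP1L1-2, 1208, 1258, 1402 and 1387 CPM with shFIP1L1-1, and 1016 to 1161 CPM with shControl, a log2 difference of -0.90 (SE 0.068, adjusted p = 9.87e-11). RPS12 differed by -0.76 and RPL13 by -0.66. The higher members were RPL11 (0.45), RPS23 (0.50) and RPS29 (1.40). The summed CPM of the list was 83885, 74375, 80764 and 83377 with shFIP1L1-2, 88741, 91030, 101633 and 104020 with shFIP1L1-1, and 88079 to 98860 with shControl. The list depended on the shFIP1L1-1 libraries: without libraries 3 and 4, 29 members were lower and 20 were higher, and without libraries 1 and 2, 53 were lower and 3 higher. Reads of these genes are shared with many pseudogenes, as are those of FTH1 and PABPC1.

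Transcripts of ribosomal protein genes start with a run of pyrimidines, the 5′ terminal oligopyrimidine tract, through which mTORC1 is known to govern their translation. For the bases around the annotated start, 20 before it and 12 from it on (RefSeq, GRCh38.p14, 5′ to 3′ on the gene's strand), capitals mark a run of C or T that begins with C at the start. The sequences are shown for lower members of the list, for the elongation factor gene EEF2, for the snoRNA host SNHG32, and for RPS29, a higher member whose annotated start has no such run.
RPL12 (chr9:127451395-127451426, - strand): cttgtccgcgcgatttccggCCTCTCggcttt
RPS12 (chr6:132814549-132814580, + strand): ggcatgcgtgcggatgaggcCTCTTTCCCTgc
RPLP0 (chr12:120201100-120201131, - strand): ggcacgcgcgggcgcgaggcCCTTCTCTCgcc
EEF2 (chr19:3985452-3985483, - strand): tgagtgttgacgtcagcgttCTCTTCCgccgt
SNHG32 (chr6:31834896-31834927, + strand): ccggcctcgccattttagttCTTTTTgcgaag
RPS29 (chr14:49598699-49598730, - strand): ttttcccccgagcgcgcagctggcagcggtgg

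A run of at least 5 pyrimidines beginning with C stood at the start of 46 of the 62 ribosomal protein genes matched to a promoter (74.2%), against 4.07% of all promoters in the table. A gene was counted if any of its promoters had the run, so the share of promoters is not a like measure. The counts of other tested genes below are by gene too. With the run, 24 of 46 ribosomal protein genes were lower, with a median of -0.231, and without it 8 of 16 were, with a median of -0.205. Among other tested genes, 744 had the run, of which 36.0% were lower and 30.6% higher, against 29.4% lower and 33.2% higher of the 10042 without it. These shares describe annotated starts, which may not be those used in Kasumi-1 cells.

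Translation factors and the hosts of small nucleolar RNAs were gathered after their values were seen, so the counts describe them only. Of 22 genes for EIF3 subunits, elongation factors, poly(A) binding proteins, TPT1, NPM1 and RACK1, 16 were lower and 2 were higher. EEF2, the translocase of the ribosome, had 7083, 6269, 6677 and 7537 CPM with shFIP1L1-2, 11847, 10752, 9998 and 9337 CPM with shFIP1L1-1, and 10667 to 11896 CPM with shControl. NPM1, a nucleolar chaperone, was lower, at -0.83, and so was EEF1A1, at -0.55. EIF3C was higher by 1.17 and has a close copy with which it shares reads. GAS5, whose introns carry snoRNAs and whose spliced RNA is a known target of nonsense-mediated decay, had 128, 120, 132 and 116 CPM with shFIP1L1-2, 459, 560, 590 and 584 CPM with shFIP1L1-1, and 231 to 246 CPM with shControl. It lay below the control with shFIP1L1-2 and above it with shFIP1L1-1, a log2 difference of -2.15 (SE 0.0756, adjusted p = 3.25e-16). Of the 21 tested genes named SNHG, with GAS5 counted among them, 11 were lower, 2 were higher and 8 were not called, with a median of -0.484. SNHG7 (-1.61), SNHG32 (-1.55) and SNHG29 (-1.17) were among the lower, and SNHG15 (0.87) and SNHG16 (0.61) were the higher ones. Some members varied with the shFIP1L1-1 library. There SNHG6 had 85.1, 108, 169 and 191 CPM and SNHG5 had 78.0, 102, 132 and 136 CPM in libraries 1 to 4. Others varied less, such as SNHG29 at 471 to 532.5 CPM. The counts of this set were not recomputed with shFIP1L1-1 libraries left out.

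Noncoding RNAs were more often lower than higher. Sense intronic RNAs were an exception, with 16 higher and 14 lower of 111. Of 532 lincRNAs, 55 were higher with shFIP1L1-2 (10.3%) and 199 were lower (37.4%), with a median of -0.463. Of 869 antisense RNAs, 66 were higher (7.59%) and 245 were lower (28.2%), with a median of -0.319, so that their share of lower genes was not above the 29.4% of all tested genes while their share of higher genes was below 29.3%. Protein-coding genes were 4259 higher (34.0%) and 3695 lower (29.5%) of 12535. Against the control, the median log2 change of lincRNAs was 0.0391 with shFIP1L1-2 and 0.546 with shFIP1L1-1. Long noncoding genes with no gene of the table on the other strand were 234 lower (35.6%) and 71 higher (10.8%) of 657. Those with such a gene were 309 lower (28.7%) and 91 higher (8.45%) of 1077. MALAT1, a nuclear RNA of speckles, had 179 to 218 CPM with shFIP1L1-2, 366 to 466 CPM with shFIP1L1-1 and 253 to 303 CPM with shControl. The counts of the noncoding classes were not recomputed with shFIP1L1-1 libraries left out.

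Zinc finger genes of chromosome 19, most of which encode KRAB repressors of transposable elements, were more often lower than higher. Of 222 tested genes on that chromosome whose symbol is ZNF with a number, 106 were lower (47.7%), 20 were higher (9.01%) and 96 were not called, with a median of -0.334. The other 962 genes of the chromosome were 267 lower and 293 higher, with a median of 0.00495. Against the control, the median log2 change of the zinc finger genes was -0.0191 with shFIP1L1-2 and 0.375 with shFIP1L1-1. Their counts were not recomputed with shFIP1L1-1 libraries left out.

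**Figure D5:**
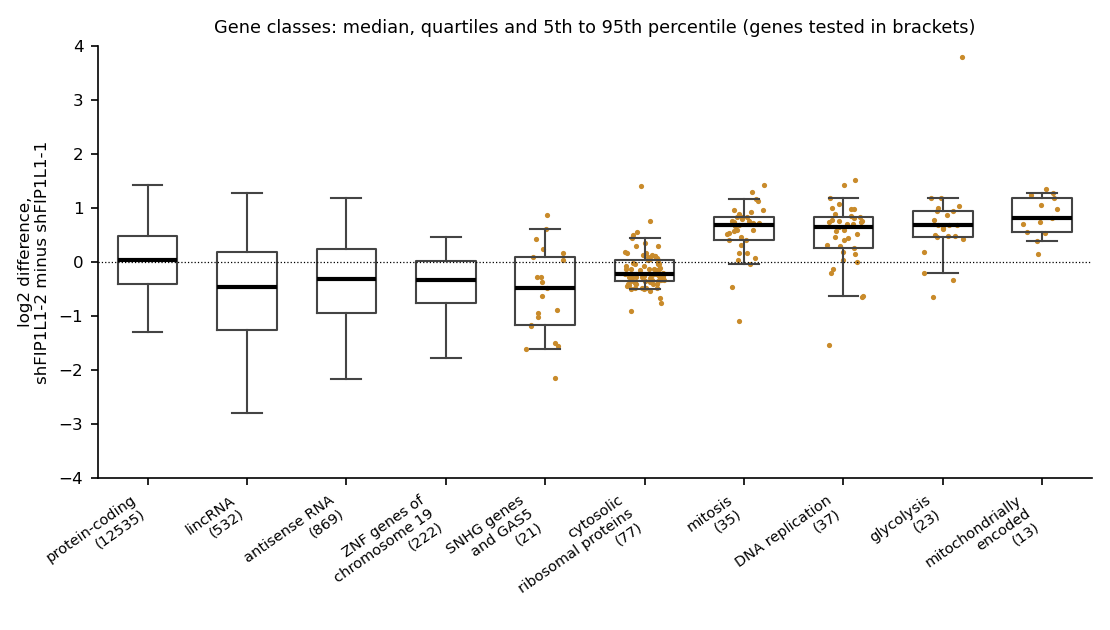
Log2 difference, shFIP1L1-2 minus shFIP1L1-1, by gene class, with boxes for the median and quartiles, whiskers for the 5th to 95th percentile and points for genes of classes under 100 members. The medians of lincRNAs (-0.463), SNHG genes with GAS5 (-0.484) and zinc finger genes of chromosome 19 (-0.334) lie below 0, and those of mitosis (0.683), glycolysis (0.676) and mitochondrially encoded genes (0.804) above it.

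Genes that mark blood lineages differed in both directions. Of 28 tested stem and progenitor genes, 13 were higher with shFIP1L1-2 and 6 were lower (67.9% called, median 0.235). CD34, the surface marker of stem cells and of this line, had 170, 166, 189 and 188 CPM with shFIP1L1-2, 55.2, 43.7, 54.8 and 53.6 CPM with shFIP1L1-1, and 233, 220, 298 and 291 CPM with shControl. The shFIP1L1-2 libraries lay between the other groups without overlap, above shFIP1L1-1 and below the control, and the hairpins differed by 1.78 (SE 0.0982, adjusted p = 3.57e-12). ERG, an ETS factor of stem cells, was higher by 1.84 and RUNX1 by 1.00. RUNX1T1, the other part of the fusion, was higher by 0.94. Counts per gene do not separate fusion from wild-type RUNX1 transcripts. MYB, a factor of progenitor growth, had 259 to 293 CPM with shFIP1L1-2, 503.8 to 635 CPM with shFIP1L1-1 and 454 to 482 CPM with shControl. MYCN was lower, at -2.15, with levels of at most 9.43 CPM.

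Granule protein genes of granulocytes were 4 higher, 6 lower and 5 not called of 15 (66.7% called, median -0.317). MPO, myeloperoxidase, had 8360, 9897, 10523 and 10871 CPM with shFIP1L1-2, 6058, 6538, 7716 and 8535 CPM with shFIP1L1-1, and 15438 to 17349 CPM with shControl. AZU1, azurocidin, had 52.2, 69.8, 74.2 and 68.2 CPM with shFIP1L1-2, 127, 187, 285 and 378 CPM with shFIP1L1-1, and 79.8 to 97.2 CPM with shControl. Its neighbour PRTN3 (-1.05) and BPI (-1.87) were lower, and CST7 and RNASE2 were higher by 1.70 and 0.67. With shFIP1L1-1 libraries 3 and 4 left out, 3 members were lower and 6 higher. Of 14 monocyte and macrophage genes, 5 were higher and 2 lower (50% called, median 0.31). CD4 had 108 to 118 CPM with shFIP1L1-2, 31.7 to 42.6 CPM with shFIP1L1-1 and 111 to 135 CPM with shControl, VCAN was higher by 2.79, and FCGR1A, the high-affinity Fc receptor, was lower, at -1.43. The early myeloid antigen CD33 had 177 to 190 CPM with shFIP1L1-2, 54.4 to 68.1 CPM with shFIP1L1-1 and 61.8 to 80.3 CPM with shControl.

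Markers of other cell types were for the most part absent or low, and their part in the differences was not tested. Of 11 tested erythroid and megakaryocyte genes, 4 were higher and 4 lower (72.7% called, median 0.41), with TFRC, the transferrin receptor, at 0.82, TFR2 at 0.64 and GP1BA at -1.01. The summed level of that list was 770 to 800 CPM with shFIP1L1-2, 476 to 489 CPM with shFIP1L1-1 and 1130 to 1170 CPM with shControl. TFRC made up most of it, at 698 to 729, 397 to 423 and 1027 to 1088 CPM in the same order. Of 7 B lymphoid genes, 5 were higher and none was lower (edgeR, with 0 genes lower also at an unadjusted p under 0.05 and in DESeq2), with 71.4% called and a median of 0.721. CD79A differed by 3.03, CD22 by 1.40 and CD79B by 0.94. MS4A1 had no count in any library. The sum of the B lymphoid list was 133 to 152 CPM with shFIP1L1-2, 72.4 to 91.6 CPM with shFIP1L1-1 and 134 to 164 CPM with shControl. For T and NK genes, 2 of 8 were higher and 2 lower (50% called, median 0.0515), with CD247 at 0.78, TCF7 at -1.31 and CD8A at -0.82, and the sum was 45.6 to 54.2 CPM with shFIP1L1-2, 41.3 to 52.1 CPM with shFIP1L1-1 and 54.9 to 64.1 CPM with shControl. The call of CD8A was lost without shFIP1L1-2 library 2 (adjusted p = 0.0561) or shFIP1L1-1 library 2 (adjusted p = 0.0746). Of 6 stromal and endothelial genes (33.3% called, median 0.157), EPCAM was higher by 1.71 and TAGLN was lower, at -0.64, and ACTA2 was not called (-0.74, adjusted p = 0.0731), though it was without shFIP1L1-1 library 3 (adjusted p = 0.0498). The sum of that list was 149 to 158 CPM with shFIP1L1-2, 58.9 to 66.5 CPM with shFIP1L1-1 and 138 to 161 CPM with shControl, and EPCAM made up most of it. Without shFIP1L1-1 libraries 1 and 2, 2 stromal genes were higher, and without libraries 3 and 4, 2 were lower.

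Adhesion genes were higher with shFIP1L1-2, with 13 of 20 tested integrins higher, 2 lower (75% called) and a median of 0.784. ITGB1, the beta chain of most matrix integrins, had 420, 417, 427 and 430 CPM with shFIP1L1-2, 90.2, 108, 103 and 115 CPM with shFIP1L1-1, and 250 to 301 CPM with shControl. ITGA9, a partner of ITGB1, was higher by 1.27. ITGAV, the vitronectin receptor chain, had 53.4, 52.2, 53.3 and 53.3 CPM with shFIP1L1-2, 149, 154, 135 and 138 CPM with shFIP1L1-1, and 87.8 to 100 CPM with shControl. ITGA4, which pairs with ITGB1 or ITGB7, was lower, at -0.79. ITGAV and ITGB1, which can pair with each other, thus differed in opposite directions.

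Signalling genes were mixed within each list. Of 25 immediate early genes, 7 were higher and 6 lower (6 and 7 when scaled by library totals), with 52% called and a median of -0.00242. These included EGR1 at 2.22 and JUN at 0.67 against FOS at -1.24 and FOSB at -1.59. DUSP6, DUSP4 (1.50) and SPRED1 (1.59), which act back on the ERK pathway, were all higher. EGR1 had 20.4, 27.4, 35.9 and 31.5 CPM with shFIP1L1-2, 4.34, 8.79, 5.95 and 5.39 CPM with shFIP1L1-1, and 2.0 to 2.69 CPM with shControl. FOS had 2.38 to 4.84 CPM with shFIP1L1-2, 5.48 to 10.3 CPM with shFIP1L1-1 and 1.31 to 1.74 CPM with shControl. Both genes were thus above the control in all 8 libraries of either hairpin, EGR1 more with shFIP1L1-2 and FOS more with shFIP1L1-1. Of 16 NF-kB and inflammatory genes, 4 were higher and 7 lower (68.8% called, median -0.305; 2 were higher when scaled by library totals), with NFKB1 at 1.19, RELB at -1.23 and CXCL8 at -1.76. Of 26 NOTCH pathway genes, 7 were higher and 8 lower (9 and 7 with no filter on low counts), and the 57.7% called is close to the 58.7% of all tested genes (median 0.0288). Members included the fringe enzymes MFNG at 1.202 and RFNG at -1.31 and the DNA-binding factor RBPJ at -0.97. Without shFIP1L1-2 library 2, 4 NOTCH genes were higher, and without shFIP1L1-2 library 1, 3 immediate early genes were lower.

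Sterol genes were more often lower than higher. Of 24 cholesterol genes, 12 were lower, 6 higher and 6 not called (75% called, median -0.178). MSMO1, a sterol oxidase, had 9.34 to 11.6 CPM with shFIP1L1-2, 24.8 to 32.1 CPM with shFIP1L1-1 and 20.8 to 27.1 CPM with shControl. INSIG1, which holds back SREBP, was lower, at -0.58, and EBP was higher by 1.00. The summed CPM of the list was 1694 to 1833 with shFIP1L1-2, 1808 to 1991 with shFIP1L1-1 and 3014 to 3100 with shControl. Of 17 fatty acid genes, 9 were higher and 7 lower (94.1% called, median 0.289), with ACSL3 at 1.01, ACSS2 at -1.01 and the desaturase FADS1 at -0.82. FADS1 had 126 to 150 CPM with shFIP1L1-2, 231 to 256 CPM with shFIP1L1-1 and 421 to 441 CPM with shControl, so it was below the control with both.

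Stress pathways were split as well. Of 27 genes of ATF4 and amino acid stress, 10 were higher and 10 lower (74.1% called, median 0.0711). ATF4, the factor itself, had 187, 189, 208 and 187 CPM with shFIP1L1-2, 292, 328, 400 and 405 CPM with shFIP1L1-1, and 261 to 303 CPM with shControl. Its known targets DDIT3 (-1.22), CHAC1 (-1.06) and ASNS (-0.56) were lower and PSAT1 was higher by 1.06, and XPOT, the tRNA exporter, was lower, at -1.17. Among ER chaperones and unfolded protein response genes, 11 of 22 were higher and 4 lower (68.2% called, median 0.243). ERN1, the sensor IRE1, had 6.15 to 6.86 CPM with shFIP1L1-2, 33.0 to 36.9 CPM with shFIP1L1-1 and 7.63 to 11.5 CPM with shControl, a log2 difference of -2.45 (SE 0.127, adjusted p = 1.55e-13). The chaperones DNAJC3 (1.82) and PDIA6 (0.95) were higher. NRF2 targets were 8 higher and 8 lower of 21 (76.2% called, median -0.0402), with AKR1B1 at 1.28, PIR at -1.98 and TKT at -0.57. Of 42 genes of lysosomes and the V-ATPase, 18 were higher and 12 lower (71.4% called, median 0.147), but 15 and 16 when scaled by library totals. Without shFIP1L1-1 libraries 1 and 2 they were 15 and 15, and without libraries 3 and 4, 21 and 9. TPP1, a lysosomal peptidase, had 356 to 366 CPM with shFIP1L1-2, 88.1 to 104 CPM with shFIP1L1-1 and 197 to 226 CPM with shControl, and ATP6V1A and SCARB2 were higher by 1.90 and 1.34.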

How the data were processed

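The authors deposited a table of raw read counts, whole numbers by Ensembl gene ID with no scaling. RNA was taken with Trizol and libraries were made with NEBNext Ultra, per the labels' protocols. The submitters' processing notes name STAR 2.7.3a, cutadapt 2.6, the build hg19 and DESeq2, without roles. The counting tool, its annotation and its strand setting were not given in the sources used here. Symbols and GRCh38 positions came from GENCODE 29 and a table of current symbols, by Ensembl ID: 45342 of 48162 IDs had a symbol, and the other 2820, with 0.76% to 0.87% of counts per library, stayed in. Of 132 genes named by rule, 60 share bases with a gene on the other strand, and without a stated strand setting such reads cannot be told apart. Total counts were 12236937 to 20388437 per library. Molecular identifiers were not used, so depth bounds counting error only. The 3'READS table of the series was not used here.

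All 12 libraries stood in 1 edgeR 4.0.16 quasi-likelihood fit (R 4.3.3) with a term per group, TMM scaling, filterByExpr, robust dispersion and 9 residual degrees of freedom, two-sided, with Benjamini-Hochberg adjustment over all 15834 genes and a threshold of 0.05. Differences are shFIP1L1-2 minus shFIP1L1-1 on the log2 scale, and SE was the absolute difference over the square root of F. Values in brackets after a gene are these log2 differences. Counts were also simulated from these libraries, drawn independently for each, with few genes changed, all of them at 5 CPM or more. There the fit called 50 of 50 genes raised 2-fold, 47 of 50 lowered 2-fold and 17 of 15312 unchanged ones. Far more genes differed in the real libraries, and those of shFIP1L1-1 were uneven. The simulated counts therefore give neither the power nor the false calls of the real contrast.

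Named genes were FIP1L1, the 12 highest and 12 lowest called genes with a mean of at least 5 CPM over the 8 hairpin libraries and no overlap of libraries, the 5 highest and 5 lowest with at least 200 CPM, 5 each for which the control lay between the hairpins in every library, and up to 3 members per list by adjusted p with at least 1 CPM. A few further list members, hosts of snoRNAs and translation factors were named after their values were seen. The members and the 32 lists were chosen with earlier results of these data known. For 15 list members no ID was matched and 142 fell below the filter. Lists are described by counts and medians beside those of all genes. Alternatives were other scalings, filters, DESeq2 1.42.0, the 8 hairpin libraries alone, a replicate block and the omission of each library, with pairs of shFIP1L1-1 libraries omitted after seeing the data. Results for a few genes are not reported here.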

Additional observations from a re-analysis of the deposited data

Results flagged for a closer look

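In 18 of 264 groups of 4 libraries (132 named genes, with shFIP1L1-2 and shFIP1L1-1 each), 1 library lay far from the other 3, judged by its gap to the nearest library as a share of the group's whole range (above Dixon's 95% critical value). Chance flags about 1 in 20 groups. None of these libraries reached the range of the other hairpin, which says little about them. Genes named for the largest differences or for lying on opposite sides of the control were picked for having no overlap. List members were picked by adjusted p.

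With shFIP1L1-2, library 4 was the low one for LGALS1 (11.2 CPM, the others 16.1 to 17.0, gap share 0.844) and for AKR1B1 (40.0 CPM, the others 43.8 to 44.2, gap share 0.906). Library 2 was low for FUT1 (7.82 CPM, the others 10.9, gap share 0.986) and ITGAV (52.2 CPM, the others 53.3 to 53.4, gap share 0.878), and high for ACSM3 (1.87 CPM, the others 0.822 to 0.954, gap share 0.874). Library 3 was low for NT5E (0.219 CPM, the others 0.795 to 0.901, gap share 0.845) and high for DBI (66.4 CPM, the others 59.4 to 60.1, gap share 0.904), PDIA3 (275 CPM, the others 258 to 261, gap share 0.855) and ATF4 (208 CPM, the others 187 to 189, gap share 0.903). Library 1 was high for MYOF (27.6 CPM, the others 23.7 to 24.3, gap share 0.837).

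With shFIP1L1-1, library 2 was low for the stem cell genes ERG (30.5 CPM, the others 38.8 to 39.5, gap share 0.925) and CD34 (43.7 CPM, the others 53.6 to 55.2, gap share 0.859). The same library was high for TCF7 (3.91 CPM, the others 2.0 to 2.22, gap share 0.886) and TKT (888 CPM, the others 819 to 826, gap share 0.892). Library 1 was high for RUNX1 (202 CPM, the others 176 to 179, gap share 0.884) and VCAN (1.83 CPM, the others 0.658 to 0.828, gap share 0.854), and library 4 was low for ZNF24TR (0.0658 CPM, the others 0.552 to 0.628, gap share 0.864) and HEATR4 (8.22 CPM, the others 10.9 to 11.2, gap share 0.886).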

How the results depend on the processing

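The counts of genes higher and lower, the counts at 2-fold and the FIP1L1 difference kept their direction and call, and each count stayed within 1.5 times its value, in all 110 recomputations under other scalings, filters and tools, with a replicate block and with libraries left out. The FIP1L1 call was close to the threshold in some, at 0.239 when scaled by library totals (edgeR adjusted p = 0.0448). Without shFIP1L1-1 libraries 1 and 2 it was 0.265 (edgeR adjusted p = 0.0454), and without libraries 3 and 4, 0.45 (edgeR adjusted p = 0.00155). Leaving out 1 library gave 4337 to 4699 genes higher, 4326 to 4772 lower, 1336 to 1519 at least 2-fold higher and 1610 to 1750 at least 2-fold lower. DESeq2 called 4713 higher and 4755 lower, and no call shared with an alternative changed sign. Deviations of same-numbered libraries of the hairpins had correlations across genes of 0.0276 to 0.0729, positive but under 0.1. Those of other pairs ran from -0.121 to 0.0759. The labels do not say that numbers pair libraries, so the main fit has no pairs. Between the hairpins, every pair within libraries 1 and 2 or within 3 and 4 was positive and every pair across them negative. The labels name no batch for this split, and its cause was not tested. Of the hairpin libraries, 4 of 8 correlated best with their own number, and the replicate block called 9337 genes, of which 9147 were shared with the 9299. Of the named genes, CD8A lost its call in 3 settings and ACTA2 gained one in 3, among them scaling by library totals (adjusted p = 0.038). Of the list counts, 24 moved by more than 1.5 times and 1382 did not. The largest move was that of higher ribosomal protein genes, with 20 in place of 3 without shFIP1L1-1 libraries 3 and 4. Scaling by library totals left 4 NOTCH, 4 BCL2 family and 2 NF-kB genes higher, and 5 DNA replication, 2 stromal and 11 interferon-stimulated genes lower. The cause of these moves was not tested. Low genes limit the lists most, since 142 list members fell below the filter.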

Other observations

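The differences between the hairpins were spread over the chromosomes. The median log2 difference, shFIP1L1-2 minus shFIP1L1-1, ran from -0.109 for the 258 tested genes of chromosome 13 to 0.0682 for the 394 of chromosome 20. Chromosome 20 had 35.8% of its genes higher and 24.6% lower, and chromosome 13 had 26.4% higher and 35.3% lower. Annotated pseudogenes were 126 higher and 272 lower of 1030 tested, with a median of -0.186, and their reads can come from the genes they resemble. Of the 7 tested genes listed in the stretch of chromosome 14 just before DHRS2, 4 were not called, among them the more abundant NGDN, ZFHX2 and AP1G2. ZFHX2-AS1 (-1.17, edgeR adjusted p = 0.0327) was lower. THTPA, a thiamine triphosphatase gene on the same stretch of chromosome 14 as DHRS2, had a mean of 1.8 CPM with shFIP1L1-2 and 3.86 CPM with shFIP1L1-1, a log2 difference of -1.10 (edgeR adjusted p = 0.00166). JPH4, the nearest tested gene before DHRS2, had 1.61 CPM with shFIP1L1-2 and 0.344 CPM with shFIP1L1-1, a difference of 2.18 (edgeR adjusted p = 0.00127).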
